A study of Mus musculus with 75 samples.

Results

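Msx1, Msx2 and Gata2 encode transcription factors, and Msx1as is an RNA read from the strand opposite Msx1. The 4 genes were taken by name from the 26218 genes of a table of 75 mouse libraries in 37 groups. MSX1 and MSX2 are homeodomain proteins that mostly repress transcription, and GATA2 is a zinc-finger factor best known from blood stem and progenitor cells. In many tissues of the embryo these genes respond to bone morphogenetic protein (BMP), whose receptors phosphorylate SMAD proteins that then bind DNA in the nucleus. In the fetal ovary germ cells enter meiosis, and Msx1 and Msx2 have been linked to that step.

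The study asked how the female fate of germ cells is specified. Germ cells were sorted from ICR:C57BL/6 embryos by fluorescence, those of E9.5 to E13.5 with the transgene Dppa3-EGFPTg/0 and those of E14.5 and E15.5 with Ddx4-RFPTg/0, so that the reporter changes with the stage and the effects of reporter and stage cannot be told apart there. Sexes were separated from E12.5 on, and each of the 11 embryo groups had 2 libraries. Primordial germ cell-like cells (PGCLCs) were made from embryonic stem cells with BMP4 in the induction medium, sorted, and cultured on m220 feeder cells. The factors under test were given from culture day 3, apart from the C57BL/6 line. Its c0RB library was sampled at day 2, and no day of first giving is taken here for c0RB or c7RB. The labels name the culture arms CT, RA, RB and 0R3B without spelling these out, and the names are used here as they stand. The 129S1:C57BL/6 line carried Prdm1-mVenusTg/0 and Dppa3-ECFPTg/0 and was sampled at day 0, in CT at days 3, 5, 7 and 9, and in RA and RB at days 5, 7 and 9, with 2 libraries a group, and once in 0R3B at day 9. A DBA/2:C57BL/6 line with the same 2 reporters gave 2 wild-type libraries at each of CT day 3 and RB days 5, 7 and 9. Its Stra8-/- counterparts gave 4 knockout libraries at each of those points, 2 from line SK1 and 1 each from SK2 and SK3. A C57BL/6 line with both reporters and Gtrosa26tm1Sor/0 gave 6 single libraries. The labels do not say which replicates came from separate embryos or cultures, and the spread that each p-value is measured against may therefore be technical.

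Each library read the 3' ends of messenger RNA amplified from 1 ng of RNA, and a level is given in RPM, the reads of a gene scaled to the reads on all genes, spike-ins apart. The gene rows of a library summed to 1000658 to 1002431 RPM. The depth, read from what 1 read is worth in RPM, ran from 1.08 to 15.6 M reads with a median of 3.12, and 3 reads, taken as the smallest amount measured, were worth 0.192 to 2.78 RPM. Replicates of a group correlated at 0.978 or more across genes. Of 9 germ cell markers, 6 to 9 had a group mean of at least 5 RPM in every group. Stra8, the targeted gene, was at 1717 and 1813 RPM in the wild-type libraries of day 9 and at 77.9 to 483 in the knockout libraries, the highest from SK3, and the labels used here do not say whether the reads lie outside the deleted part. In bulk samples like these, fewer cells with a transcript and less of it per cell cannot be told apart.

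Differences are given as log2 of (RPM + 1), first group minus second, with the standard error (SE) from a limma fit of all genes with 5 RPM or more in 2 or more libraries of an experiment. A gene was called higher or lower at an adjusted p under 0.05 with a log2 difference of at least 1. Where libraries of compared groups are said not to overlap, this describes the printed values only. The share of all genes without such overlap is not given, and with 2 libraries a group unchanged genes can also fail to overlap. Msx1as, Msx2 and Gata2 passed that filter in each of the 3 replicated experiments. Msx1 passed it in none of them and is described by its values.

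Msx1 (Entrez 17701) lies at chr5:37820491-37824585 of GRCm38.p6. Msx1as (Entrez 93895, now Msx1os in RefSeq) lies inside it at chr5:37820564-37822751. Of the 2188 bases that Msx1as spans, 697 fall in untranslated sequence of Msx1 exons and 440 in its coding sequence, while 1002 are intronic to Msx1 in GENCODE. Those 697 bases belong to the 3' untranslated region of Msx1 (chr5:37820485-37821260, minus strand). The libraries read 3' ends, so that reads of Msx1 messenger RNA can fall in the overlap. The strand setting of the authors' counting is not given in the sources used here, so that reads of the pair cannot be told apart with certainty. Values named Msx1as below may therefore include reads of Msx1, which was not tested. Msx2 (Entrez 17702) lies at chr13:53466881-53472780 and Gata2 (Entrez 14461) at chr6:88193891-88207032.

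The 250 bases before the annotated start of Msx1 are shown because this 1 upstream window serves the gene of the pair with the fewest reads. They are read 5′ to 3′ on the minus strand from RefSeq's GRCm38.p6 (chr5:37824586-37824835), with CCAAT boxes of either strand in capitals.
Msx1 upstream: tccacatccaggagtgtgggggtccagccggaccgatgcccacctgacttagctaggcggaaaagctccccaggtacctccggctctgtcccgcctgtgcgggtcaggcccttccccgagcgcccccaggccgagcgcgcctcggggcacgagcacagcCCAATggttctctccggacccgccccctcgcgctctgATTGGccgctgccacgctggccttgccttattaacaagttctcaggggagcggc
The window held 2 CCAAT matches, at 91 and 54 bases before the start, and 33.8% of 32851 promoter windows of the same length held at least 1. It held no GGCGCC (found in 9.59% of all windows) and no GTCTAGAC (0.167%), which are sequences SMAD proteins can bind. Neither GATAAG (6.55%), a GATA motif, nor AGGTCA (14%), a nuclear receptor half-site, was present. Of 2 Gata2 windows, the one before the inner start (chr6:88198414-88198663), all 250 bases of which lie in a GENCODE exon of Gata2, held 1 GGCGCC, 38 bases upstream, and 2 CCAAT, and the one before the outer start held none of the 5 motifs. The Msx2 window, which also lies wholly in a GENCODE exon, of Msx2, held 1 CCAAT and none of the other 4. Both strands were searched, and a match or its absence describes these letters only.

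Reads at the Msx1 locus were assigned mostly to Msx1as. Msx1 was above 0 in 32 of 75 libraries and reached 3 reads in 17, with a highest value of 10.6 RPM or 33 reads. Msx1as was above 0 in 63 libraries and went up to 92.0 RPM or 287 reads. In the 24 libraries with at least 20 reads at the locus, Msx1 held 0 to 16.7% of them, and 6.61% of the 2710 reads when pooled (exact 95% interval 5.70 to 7.61%, counting error only). Among experiments the share was 7.51% for embryos, 5.50% for 129S1:C57BL/6 cells and 5.08% for the Stra8 lines. Across the 37 group means of log2 values, Msx1 and Msx1as had a Pearson correlation of 0.89, given as a description since the rows overlap on the genome and share libraries.

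**Figure D1:**
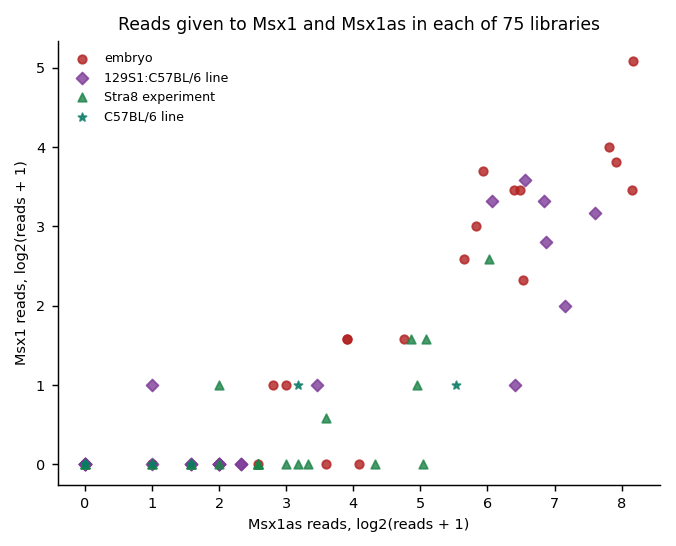
Reads given to Msx1 (vertical) and Msx1as (horizontal) on log2(reads + 1) axes, 1 point for each of 75 libraries, coloured by experiment. Msx1 reads appear mainly where Msx1as reads are many, and the highest point is a female E13.5 library with 33 and 287 reads.

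In embryonic germ cells, the 4 genes were low in males from E12.5 on, and each had its highest group mean in E13.5 females. Those libraries overlapped the E12.5 females for Msx2 and the E14.5 females for Msx1as and Msx1, and the fitted E13.5 minus E12.5 difference of Msx2 was -0.05. Gata2 at E13.5 was 233 and 253 RPM in females against 2.22 and 1.97 in males. Msx2 was 42.4 and 85.0 against 0 and 0.328, and Msx1as was 69.5 and 92.0 against 1.59 and 4.60. The Gata2 mean was 116-fold higher in females and that of Msx1as 26.1-fold. Female and male libraries did not overlap for any of the 3, and the share of all genes without such overlap is not given. Blood and endothelial markers summed to 132 to 142 RPM in these females and 65.5 to 65.9 in the males, with 7 and 4 of 12 above 0. Gata1, Tal1, Ptprc, Cdh5 and Kdr were at 0 in both sexes, and Hbb-y, Hba-x and Runx1 in males only. The part of these markers in the Gata2 values was not tested. All 3 tested genes were called at E13.5, against 16.7% of 12567 genes called in either direction. Their log2 differences were 6.30 (SE 0.31, adjusted p = 6.63e-13) for Gata2, 5.73 (SE 0.37, adjusted p = 8.02e-11) for Msx2 and 4.41 (SE 0.45, adjusted p = 9.69e-08) for Msx1as.

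**Figure D2:**
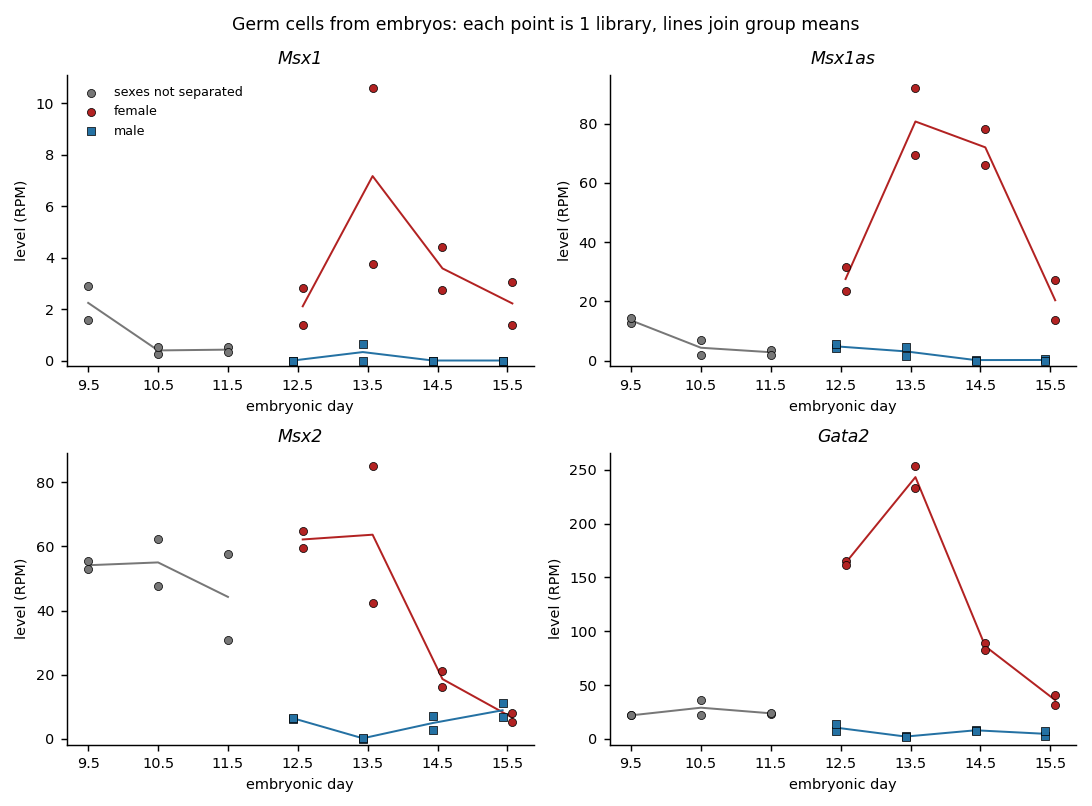
Levels in RPM of Msx1, Msx1as, Msx2 and Gata2 in germ cells by embryonic day, 1 point per library, with lines through group means and colours for sex. Female points for Gata2 peak at 233 and 253 RPM at E13.5, while every male point is at or below 13.4 RPM.

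From E9.5 to E11.5, before the samples were split by sex, Msx2 and Gata2 had no called change and Msx1as had 1. Msx2 was 53.0 and 55.3 RPM at E9.5, 62.4 and 47.7 at E10.5, and 57.7 and 30.8 at E11.5. Gata2 was 21.9 and 21.8 RPM at E9.5, 35.9 and 22.01 at E10.5, and 23.4 and 24.1 at E11.5. No change between these stages was called for either gene. Msx1as fell from 12.6 and 14.502 RPM at E9.5 to 1.82 and 6.81 at E10.5, a log2 difference of -1.63 (SE 0.45, adjusted p = 0.0149), and was 3.67 and 1.92 at E11.5. That made 1 of 3 tested genes called between E9.5 and E10.5, where 6.74% of all genes were called, and 0 of 3 between E10.5 and E11.5, where 1.13% were (limma; unadjusted p under 0.05 for none of the 3). The Msx1as call was lost without the first E10.5 library (-0.90), and without the first (-1.72) or the second (-1.54) E9.5 library. At E9.5 the summed level of 12 blood and endothelial markers was 3028 to 3225 RPM with all 12 above 0, and at E11.5 it was 117 to 132 with 8 above 0. Their part in the E9.5 values was not tested.

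At E12.5 the sexes parted in different ways for the 3 genes. Gata2 rose in females to 165 and 161 RPM (log2 difference from E11.5 of 2.73, SE 0.31, adjusted p = 2.89e-06) and fell in males to 7.44 and 13.4 (-1.16, SE 0.31, adjusted p = 0.0137). Msx2 fell in males to 6.33 and 6.52 RPM (-2.54, SE 0.37, adjusted p = 6.63e-05), while in females it was 59.5 and 64.9 and was not called (0.55, 95% interval -0.23 to 1.32). Msx1as rose in females to 31.6 and 23.4 RPM (2.93, SE 0.45, adjusted p = 7.38e-05) and was 4.09 and 5.49 in males, with no call (0.64, interval -0.29 to 1.56). Thus 2 of 3 tested genes were called from E11.5 to female E12.5, against 8.48% of all genes, and 2 of 3 from E11.5 to male E12.5, against 6.93%. The male Gata2 call did not hold without the first male E12.5 library, where the difference was -0.78, or without either E11.5 library.

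Between the sexes at E12.5 all 3 genes were called higher in females, where 6.53% of all genes were called. The differences were 3.90 (SE 0.31, adjusted p = 1.15e-08) for Gata2, 3.09 (SE 0.37, adjusted p = 6.59e-06) for Msx2 and 2.30 (SE 0.45, adjusted p = 0.00122) for Msx1as. Fitted on the 4 libraries of that stage alone, with far fewer residual degrees of freedom, the adjusted p-values were 0.0693, 0.0693 and 0.0836, and no gene of the table was called. The 12 gonadal somatic markers summed to 33.2 to 33.7 RPM in females and 32.3 to 36.5 in males, with 6 and 8 above 0. Foxl2, Amh, Cyp17a1 and Cyp11a1 were at 0 in both sexes, and Nr5a1 and Sox9 in females only. Fibroblast markers summed to at most 6.52 RPM at that stage in both sexes. The 12 blood and endothelial markers summed to 136 to 153 RPM in females and 114 to 136 in males, with 6 and 7 of them above 0. Of these markers Gata1, Tal1, Runx1, Ptprc and Kdr were at 0 in all 4 E12.5 libraries, and Cdh5 in females only. The part of the list in the Gata2 values was not tested.

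From E12.5 to E13.5 in females, Msx1as rose (1.52, SE 0.45, adjusted p = 0.0289), and 5.86% of all genes were called. Gata2 (0.57) and Msx2 (-0.05) were not called. The Msx1as call was lost when any 1 of the 4 libraries was left out, with adjusted p-values from 0.0562 to 0.192. From E13.5 to E14.5, where the reporter also changed, Gata2 fell to 89.2 and 82.7 RPM (-1.49, SE 0.31, adjusted p = 0.000316) and Msx2 to 16.2 and 21.1 (-1.65, SE 0.37, adjusted p = 0.000659), among 35.5% of all genes called. Msx1as stayed uncalled at 66.0 and 78.1 RPM (-0.15, interval -1.08 to 0.77).

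At E15.5 all 3 were lower than at E14.5 in females, among 4.91% of all genes called. Msx1as was 27.1 and 13.6 RPM (-1.84, SE 0.45, adjusted p = 0.00842), Gata2 40.8 and 31.2 (-1.25, SE 0.31, adjusted p = 0.0107) and Msx2 7.91 and 5.29 (-1.38, SE 0.37, adjusted p = 0.0172). Each of the 3 calls was lost without the second E15.5 female library, with log2 differences of -1.37 for Msx1as, -1.06 for Gata2 and -1.13 for Msx2. They were lost too without 1 E14.5 female library, the second for Msx1as and Msx2 and the first for Gata2.

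Males of E14.5 and E15.5 kept low levels of Gata2 and Msx1as. Gata2 was 8.44 and 7.43 RPM in E14.5 males and 2.22 and 7.06 in E15.5 males. Msx1as had 1 read or none in each of these 4 libraries. Msx2 was 2.71 and 7.14 RPM at E14.5 and 11.1 and 6.70 at E15.5, so that by E15.5 male and female libraries overlapped. At E14.5 all 3 genes were called higher in females, with differences of 6.00 for Msx1as, 3.28 for Gata2 and 1.83 for Msx2, but 48.3% of all genes were called there. At E15.5, where 53.6% were called, Msx1as (4.11, SE 0.45, adjusted p = 1.96e-08) and Gata2 (2.85, SE 0.31, adjusted p = 2.32e-08) were called and Msx2 was not (-0.37, interval -1.14 to 0.40, adjusted p = 0.385). Fibroblast markers summed to 106 to 122 RPM in E15.5 males and 10.6 to 34.2 in females, and their part in the male Msx2 values was not tested.

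The change of the sex difference from E12.5 to E15.5 was tested as its own contrast, in which 49.9% of all genes were called. For Msx2 it shrank by 3.46 on the log2 scale (difference -3.46, SE 0.53, adjusted p = 6.34e-06). For Msx1as it grew by 1.82 (SE 0.63, adjusted p = 0.0168), and for Gata2 it shrank (-1.05, SE 0.44, adjusted p = 0.0447). The Gata2 call was lost under most alternatives and was -0.45 after quantile normalization, while that of Msx1as was lost with a pseudocount of 4 RPM (0.65) and without any 1 of 4 libraries, where it was as low as 1.35 without the first E15.5 female library.

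Msx1 itself had 0 reads in 7 of the 8 male libraries from E12.5 to E15.5 and 2 reads in the other. Female libraries held 1.39 and 2.82 RPM at E12.5, 3.75 and 10.6 at E13.5, 4.42 and 2.74 at E14.5, and 3.04 and 1.39 at E15.5. The female libraries had 4 to 33 reads, so that the sexes did not overlap at any of the 4 stages. With 3 reads per library as the floor of the male groups, the female mean was at least 1.96-fold higher at E12.5, at least 4.06-fold at E14.5 and at least 2.04-fold at E15.5. Without the filter on low values, which lets Msx1 into the fit, its female minus male differences were 1.60 at E12.5 and 2.53 at E13.5, with adjusted p-values of 0.035 and 0.000621.

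Among 11 tested BMP target genes, 5 were called higher in females at E12.5 and none lower, where 3.77% of all genes were called higher, and the median difference was 1.19 against 0 over all genes. Id1, an inhibitor of basic helix-loop-helix factors and a direct SMAD target, was 210 ± 14.7 RPM in females and 5.82 ± 2.45 in males (SD, n = 2). Id2 (2.49), Zglp1 (2.29) and Id4 (1.96) were among the others called, Zglp1 being a GATA-like zinc-finger factor of germ cells. Of 12 tested BMP ligands, receptors and signal transducers, 0 were higher and 2, the ligand genes Bmp4 and Bmp7, were lower in females. At that stage 2.75% of all genes were called lower. By E15.5 the target list had 4 called higher, led by Id1 (5.21), Id3 (3.98) and Id2 (3.60), and 3 lower, led by the Notch target Hey1 (-3.68), where 23.7% of all genes were called higher and 30.0% lower.

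The close relatives of the members were scarcer. Of the 7 genes Msx3 and Dlx1 to Dlx6, which form the homeobox branch nearest to Msx, 2 reached the filter in the embryo. Dlx3 was 8.19 ± 3.83 RPM in females and 0.159 ± 0.224 in males at E13.5 (SD, n = 2, difference 2.94, adjusted p = 1.71e-05), and Dlx4 was called higher with a difference of 1.42. Of 9 other GATA factors and cofactors, 3 were tested, and Zfpm1, a GATA cofactor, and Zglp1 were called higher in females at E13.5 while Gata4 was called lower. Of all genes, 10.4% were called higher and 6.31% lower at that stage.

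In the culture of the 129S1:C57BL/6 line, Msx1as was present at day 0, absent or near 0 in CT and RA, and present again late in RB, while every library held Msx2 and Gata2. Msx1as stood at 34.0 and 33.7 RPM at day 0 and at 0 in both libraries of CT day 3, at least 32.4-fold lower with a floor of 3 reads per library. Msx2 fell over the same step from 46.9 and 68.5 RPM to 29.9 and 23.6 (-1.07, SE 0.24, adjusted p = 0.00621). Gata2 was 37.2 and 64.5 RPM at day 0 and 60.8 and 63.4 at day 3, with no call (0.33, interval -0.09 to 0.75). Thus 2 of 3 genes were called in this step, with Msx1as at -5.12 (SE 0.40, adjusted p = 6.86e-09), against 5.47% of 11873 genes. The Msx2 call was lost without the second library of either group, where the difference was -0.80 or -0.90. Among 14 tested BMP targets 4 were called lower, led by Id1 (-2.95), Id2 (-1.72) and Id4 (-1.64), and 1, the BMP antagonist gene Grem1, was called higher (2.66). Early mesoderm markers summed to 42.4 to 43.8 RPM at day 0, with 5 of 6 above 0, and to 4.28 to 5.34 at CT day 3, with T, Mixl1, Hand1 and Hoxb1 at 0. Fibroblast and feeder markers summed to 4.40 to 4.71 RPM at day 0 and 52.0 to 63.0 at CT day 3, with 6 and 7 of 10 above 0. The part of either list in the Msx1as and Msx2 values was not tested.

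**Figure D3:**
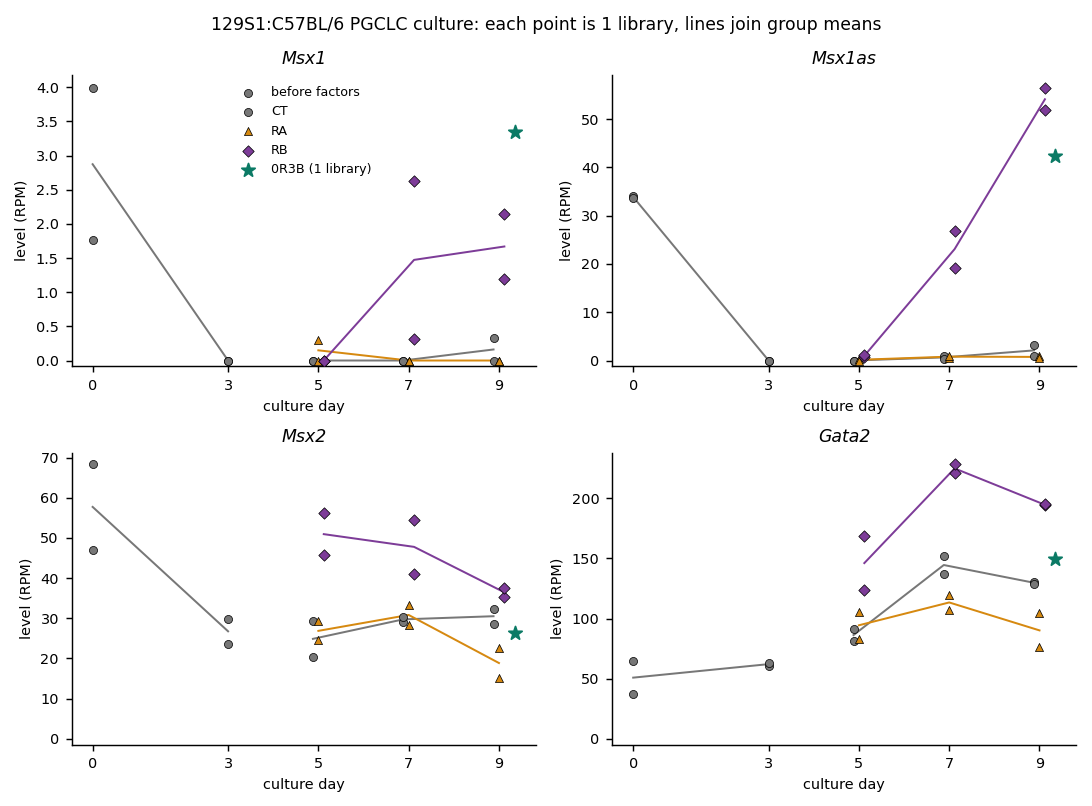
Levels in RPM by culture day in the 129S1:C57BL/6 line, 1 point per library and lines through group means, for CT, RA, RB and the single 0R3B library. Msx1as climbs in RB to 56.4 and 51.8 RPM at day 9 and is at or below 3.23 RPM in every CT and RA library.

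Gata2 rose during culture in CT. It was 81.4 and 91.1 RPM at CT day 5, 137 and 152 at day 7, and 130 and 129 at day 9. From day 3 to day 9 the difference was 1.05 (SE 0.20, adjusted p = 0.00456), and Msx1as, at 0.964 and 3.23 RPM on day 9, was also called (1.53, SE 0.40, adjusted p = 0.0351). Msx2, at 28.6 and 32.4 RPM on day 9, was not called. These 2 of 3 calls compare with 2.25% of all genes. Both were sensitive to single libraries: the Gata2 adjusted p was 0.0527 without the first day 3 library, and the Msx1as difference was 0.97 without the second day 9 library and was not called without either day 3 library.

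Msx1as was higher in RB at days 7 and 9. It was 0.70 and 1.23 RPM at day 5, 19.3 and 26.9 at day 7, and 56.4 and 51.8 at day 9, while RA libraries had at most 1.01 RPM. The RB minus CT differences were 0.96 at day 5 (adjusted p = 0.436), 3.88 at day 7 (SE 0.40, adjusted p = 1.7e-07) and 4.25 at day 9 (SE 0.40, adjusted p = 6.8e-09). On day 9 the RB mean was 25.8-fold that of CT. Against RA it was 0.77 at day 5 with no call, 3.73 at day 7 (adjusted p = 3.33e-06) and 4.99 at day 9 (adjusted p = 2.72e-09). The RB minus RA difference grew from day 5 to day 9 by 4.21 (SE 0.57, adjusted p = 1.72e-05), in a contrast that called 17.5% of all genes. Neither Msx2 (0.05, interval -0.67 to 0.76) nor Gata2 (0.50, interval -0.09 to 1.09) was called in it.

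Msx2 was called higher in RB than in CT at day 5 and at no later day. RB libraries held 56.2 and 45.7 RPM at day 5 against 29.3 and 20.4 in CT, and this was called (1.02, SE 0.24, adjusted p = 0.0463). At day 7 RB was 54.6 and 41.0 RPM against 29.2 and 30.3 in CT, a difference of 0.65 (adjusted p = 0.0435) that is under the 1.0 needed for a call. At day 9 RB was 35.3 and 37.6 RPM against 28.6 and 32.4 in CT, and the difference of 0.25 turned to -0.07 under both median centring and quantile normalization. The day 5 call stood near the threshold and was lost without the second CT library (0.77), the first RB library (0.87) or the second RB library (1.17). Against RA the RB differences of Msx2 were 0.90 at day 5, 0.61 at day 7 and 0.94 at day 9, and none was called. At day 9 the RA libraries held 15.0 and 22.7 RPM and the adjusted p was 0.00338 (limma). Leaving out 1 library gave 0.66 to 1.22 there.

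Gata2 was higher in every RB library than in every CT and RA library of the same day, with differences smaller than those of Msx1as. RB libraries held 124 and 168 RPM at day 5, 221 and 228 at day 7, and 194 and 195 at day 9. The RB minus CT differences of 0.74, 0.64 and 0.58 had adjusted p-values of 0.101, 0.0193 and 0.0184, and none reached the size needed for a call. The median difference over all genes was itself 0.22 at day 7 and 0.19 at day 9. With each library centred on its own median level, the Gata2 differences were 0.34 and 0.26, with adjusted p-values of 0.233 and 0.317. In RA, Gata2 was 83.0 and 106 RPM at day 5, 107 and 119 at day 7, and 104 and 76.0 at day 9. Against RA the RB differences were 0.62 at day 5, 0.98 at day 7 (adjusted p = 0.00416, not called) and 1.12 at day 9 (SE 0.20, adjusted p = 0.000114, called). The day 9 call was lost without the second RA library, where the difference was 0.89.

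Counted by comparison, RB against CT called 1 of 3 genes at day 5 (Msx2), 1 at day 7 (Msx1as) and 1 at day 9 (Msx1as). Of all genes, 0.674%, 19.3% and 36.7% were called. RB against RA called 0, 1 (Msx1as) and 2 (Msx1as and Gata2) of 3, against 0.0421%, 4.62% and 24.8%. At day 5 the unadjusted p against RA was under 0.05 for Msx2 and Gata2. RA against CT called 0 of 3 at each day, against 0.244%, 5.21% and 16.3% of all genes. At day 9 its differences were -0.73 for Msx1as (adjusted p = 0.19), -0.69 for Msx2 (adjusted p = 0.0388) and -0.54 for Gata2 (adjusted p = 0.0524), and unadjusted p was under 0.05 for Msx2 and Gata2. After quantile normalization Msx1as (-1.40) and Msx2 (-1.04) were called lower in RA at that day. The RB and RA comparisons share their CT libraries, and no overlap between them is given.

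In these cells Msx1 had 6 and 11 reads at day 0 (1.76 and 3.99 RPM), none at CT days 3, 5 and 7, and at most 1 read in any RA library. RB libraries held 9 and 1 reads at day 7 and 3 and 8 at day 9. The RB mean at day 9 was 1.67 RPM and at least 1.89-fold that of RA with the same floor.

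Of 14 tested BMP targets, 10 were called higher in RB than in CT at day 7, led by Id1 (4.27), Zglp1 (4.01), Smad9 (3.60) and Id4 (3.12), with a median difference of 1.95 against 0.22 over all genes. At day 9 there were 10 higher, led by Id1 (5.93), and 1 lower. Of all genes, 15.7% were called higher at day 7 and 24.6% at day 9. Id1 was 247 ± 45.8 RPM in RB and 11.8 ± 0.776 in CT at day 7 (SD, n = 2). Gata3 rose to 10.3 ± 1.04 RPM in RB at day 9 from 0.966 ± 0.452 in CT, and Gata4 and Gata6 were called higher as well, so that 4 of 5 tested GATA factors and cofactors were called, Zfpm1 being the exception. Dlx2, Dlx3 and Dlx4 were all called higher in RB at days 7 and 9, with Dlx2 at 15.7 ± 0.228 RPM and 0.323 ± 0.457 in CT at day 9. Fibroblast and feeder markers summed to 19.6 to 53.2 RPM in RB at day 9, 42.0 to 105 in CT and 114 to 196 in RA.

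**Figure D4:**
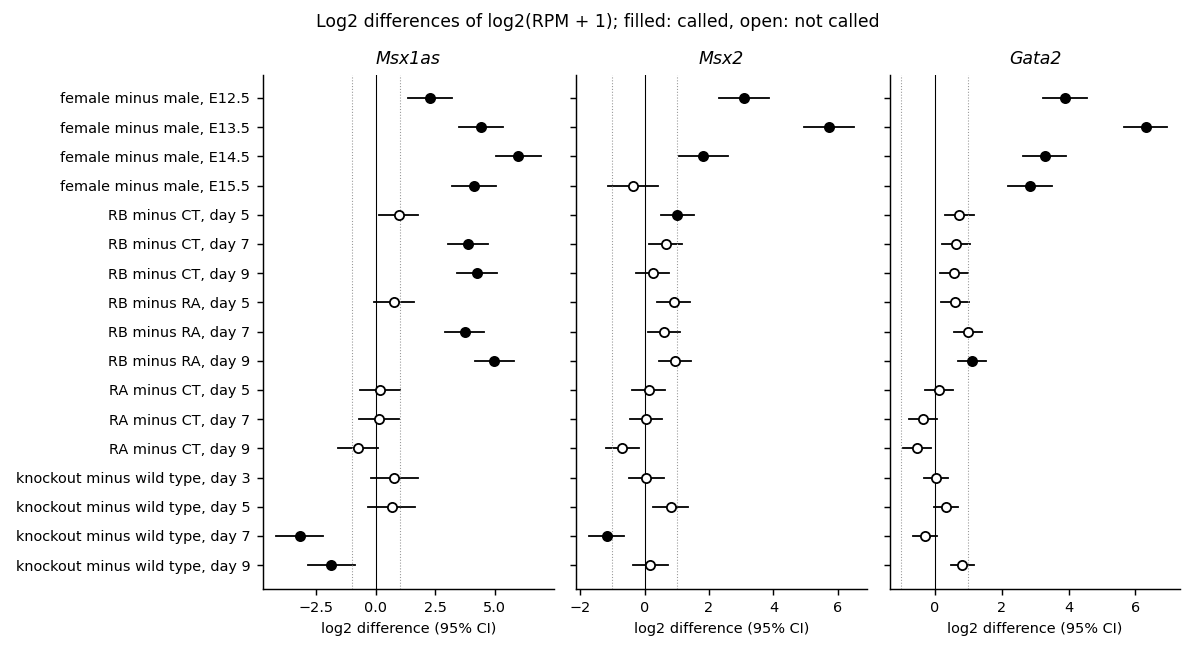
Log2 differences of log2(RPM + 1) with 95% intervals for Msx1as, Msx2 and Gata2 in 17 comparisons of sex, factor and genotype, with filled circles for called genes and dotted lines at a difference of 1 either way. The sex differences reach 6.30 for Gata2 at E13.5, and the RB minus CT differences of Gata2 are all under 1.

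In the Stra8 experiment, Msx1as was higher at days 7 and 9 of RB in wild type than in the Stra8 knockout. Wild-type libraries held 0.731 and 0 RPM at day 5, 23.2 and 14.6 at day 7, and 27.7 and 30.0 at day 9. Knockout libraries held 0.851, 0.897, 1.05 and 1.85 RPM at day 7, and 4.31, 5.41, 9.09 and 12.4 at day 9. The day 7 values were 5, 2, 3 and 2 reads in the same order, at or near the floor of 3 reads. No knockout library of days 7 and 9 reached the lowest wild-type library of its day. The differences were -3.19 at day 7 (SE 0.49, adjusted p = 2.9e-05) and -1.86 at day 9 (SE 0.49, adjusted p = 0.00294). The wild-type libraries came from a single line, and 2 knockout libraries a day came from SK1. These p-values treat libraries as independent, and on the wild-type side the effects of line and genotype cannot be told apart. On day 9 the wild-type mean was 3.69-fold that of the knockout. At days 3 and 5 no difference was called (0.78 and 0.67, both adjusted p = 1), and the change from day 3 to day 9 was called (-2.64, SE 0.69, adjusted p = 0.00558) among 14.9% of all genes.

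**Figure D5:**
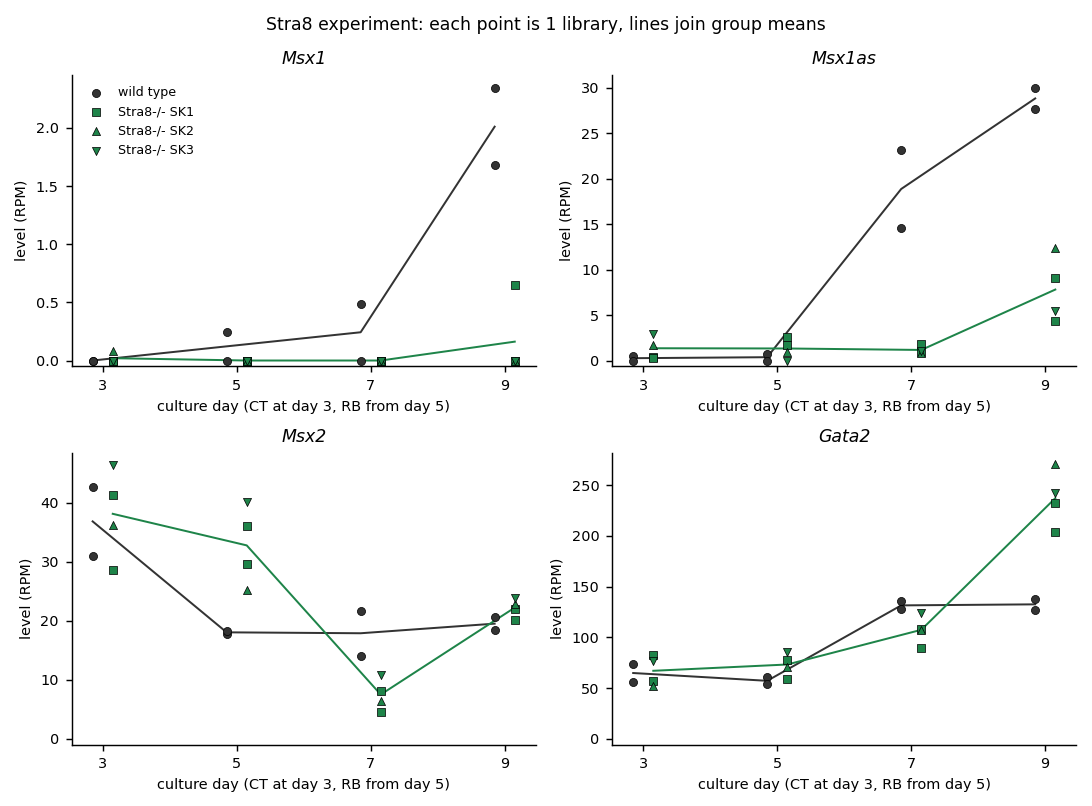
Levels in RPM by culture day in the Stra8 experiment, 1 point per library and lines through group means, with wild type in black and the Stra8-/- lines SK1, SK2 and SK3 by symbol. Msx1as reaches 27.7 and 30.0 RPM in wild type at day 9 and 4.31 to 12.4 in the knockout, while Gata2 is higher in the knockout at that day.

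Gata2 at day 9 was 138 and 127 RPM in wild type and 204, 232, 242 and 271 in the knockout, and the groups did not overlap. The difference of 0.83 (SE 0.17, adjusted p = 0.000279) is under the size needed for a call, and so is its change from day 3 (0.79, SE 0.24, adjusted p = 0.0176). At day 7 Gata2 was 127 and 136 RPM in wild type and 89.8 to 124 in the knockout, with no call (-0.30, interval -0.65 to 0.05). In the wild type Gata2 rose from 60.7 and 53.7 RPM at day 5 (1.20, SE 0.20, adjusted p = 6.79e-06), and after median centring the difference was 0.92.

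Msx2 was called lower in the knockout at day 7 and at no other day. It was 4.63 to 10.9 RPM in the knockout and 21.7 and 14.1 in wild type, and was called (-1.17, SE 0.27, adjusted p = 0.00219). The call was lost without the first wild-type library (-0.88, adjusted p = 0.0897) or the first SK1 library (-0.99). At day 5 the libraries held 25.3 to 40.1 RPM in the knockout and 17.8 and 18.3 in wild type, a difference of 0.81 that was not called (adjusted p = 0.726). At day 9 the ranges overlapped at 20.1 to 24.0 and 18.5 and 20.6 RPM.

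Counted together, knockout against wild type called 0 of 3 genes at days 3 and 5, where 0.00819% and 0.0164% of 12206 genes were called. It called 2 at day 7 (Msx1as and Msx2), against 8.73%, and 1 at day 9 (Msx1as), against 19.1%. At day 5 the unadjusted p was under 0.05 for Msx2, and at day 3 for none of the 3 (limma). In the wild type, 0 of 3 genes were called from CT day 3 to RB day 5, where 2.25% of all genes were called and Msx2 was at -0.97 (adjusted p = 0.0779). From RB day 5 to day 9, 2 of 3 were called, Msx1as (4.50, SE 0.56, adjusted p = 5.25e-08) and Gata2, against 38.5% of all genes. Of the 14 tested BMP targets, 6 were called higher in the knockout at day 9, among them Id1 (750 ± 44.2 RPM, n = 4, against 232 ± 15.9, n = 2, SD) and Tbx3 (1.89), and none lower, where 10.8% of all genes were called higher. At day 7 only Smad9 of this list was called, and it was lower. Of 7 tested meiotic entry genes, 6 fell in the knockout at day 9, the targeted Stra8 among them, where 8.35% of all genes were called lower. Endothelial Pecam1, which germ cells also express, was called higher in the knockout at days 7 and 9. Early mesoderm markers summed to 35.5 to 60.8 RPM in the knockout at day 9 and 4.2 to 4.68 in wild type, and their part in the Gata2 values was not tested.

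Msx1 in this experiment had 2 and 5 reads in wild-type RB day 9 (1.68 and 2.34 RPM) and 0, 0, 0 and 2 in the knockout. These counts are at or near the smallest amount measured.

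The single libraries have no replicate and were not tested. In 0R3B at day 9, Msx1as was 42.4 RPM (114 reads, counting interval 35.0 to 51.0 RPM), Msx1 3.35, Gata2 150 and Msx2 26.3. Its Msx1as value lay between those of CT and RB at that day. In the C57BL/6 line, Msx1as was 20.8 RPM at day 0 and 0 in both day 2 libraries, and Gata2 was 113, 115 and 120 RPM in the same 3 libraries. Msx2 was 94.6 RPM at day 0, its highest value in the table, and 54.3 and 47.2 at day 2. The library labelled c7 had 99.2 RPM of Gata2, c7CT 67.0 and c7RB 124, while Msx2 was 31.9, 21.1 and 9.17 in the same order. Msx1as was 0.268, 0.620 and 1.93 RPM there, or 1, 2 and 8 reads.

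Set in order over the 30 groups with replicates, Gata2 ran from 243 ± 14.2 RPM (SD, n = 2) in E13.5 females to 2.10 ± 0.178 in E13.5 males. Knockout RB day 9 (237 RPM) and RB day 7 of the 129S1:C57BL/6 line (225 RPM) followed the E13.5 females without a gap. Msx1as had E13.5 and E14.5 females at the top (80.8 and 72.0 RPM), whose libraries overlapped, then RB day 9 of the 129S1:C57BL/6 line (54.1 RPM) apart from both. Msx2 had E13.5 and E12.5 females, day 0 PGCLCs, E10.5 and E9.5 at the top, from 63.7 to 54.2 RPM, all overlapping with their neighbours. Of the 29 neighbouring pairs in each order, the libraries did not overlap in 8 for Gata2, 5 for Msx1as, 2 for Msx2 and 0 for Msx1. The same count over all genes is not given, so these numbers describe the printed values only. Groups at 0 in every library count as overlapping, and Msx1 has many of them.

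Across the 37 group means, which share libraries and depth within a gene pair, Pearson correlations differed between embryo and culture. Msx2 and Gata2 correlated at 0.75 in the 11 embryo groups, 0.01 in the 26 PGCLC groups and 0.62 in all 37, where Spearman's rho was 0.33. Msx1as and Gata2 correlated at 0.85, 0.44 and 0.26 in the same order. With Id1, the embryo and PGCLC values were 0.92 and 0.52 for Gata2, 0.89 and 0.68 for Msx1as, and 0.66 and -0.32 for Msx2. The genes with the most similar pattern to Msx1as were Eml3 (0.82), D6Mm5e (0.81), Mark1, Mei4 and Crb2, out of 13632 genes. Npnt (0.90) and Phlda2 (0.86) came nearest to Msx2, followed by Pck2, Efs and AU015836. Gata2 was nearest to Cln6 (0.83), Thoc2, Nr6a1, Rap1a and Mtmr10, and Msx1 to 2610029G23Rik (0.78), Vipr2, D6Mm5e, Prkag2 and Mark1. These correlations describe the pattern over groups and carry no test.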

How the data were processed

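The labels put 75 libraries into 37 groups. Per the labels, the authors deposited a signal value per gene and library in RPM, and the submitters' processing notes name cutadapt 1.11, TopHat 1.4.1, Bowtie 1.0.1, Cufflinks 2.2.0 and mm10. Spike-in rows (96) were left out, and 2777 values under 0.001 RPM were set to 0. The spike-in sum differed widely between libraries. At RB day 9 it was 48450 and 36.0 RPM in wild type and 32010, 13.1, 20.1 and 10.8 in the knockout. It was 27188 RPM in c7CT and 9.17 in c7RB, and 1114 and 475 at E9.5 against 15291 and 15344 at E10.5. The labels do not say what this reflects, and its part in these comparisons was not tested. Depth was 1.08 to 15.6 M reads, and 3 reads were the floor. Floors, and the intervals of single libraries and of the Msx1 read share, cover counting error only, while the intervals of log2 differences are limma's, from the spread between libraries. Values were log2(RPM + 1) with a pseudocount of 1 RPM. Genes with 5 RPM in 2 or more libraries were fitted per experiment with limma 3.58.1 (R 4.3.3), trend on, Benjamini-Hochberg adjusted over all of them, and called at an adjusted p under 0.05 and a log2 difference of at least 1. No count test was run, since low values were not whole reads often enough. The fit was tested on simulated data. Python 3.11.15, pandas 2.3.3, NumPy 2.4.6, SciPy 1.17.1 and Matplotlib 3.10.9 were used.

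The members and lists were chosen with earlier results of these data known. Named genes were the members, up to 4 called genes of a list with the largest change in a comparison (a few, such as Gata3, Grem1, Dlx4 and the marker genes, were named after their values were seen), and the 5 genes with the highest Pearson correlation to each member over group means. Alternatives were other pseudocounts, no filter, median centring, quantile normalization, a replicate block, only the groups compared, and leaving out each library. Adding Msx1 to Msx1as and averaging the SK1 libraries were chosen after seeing the data.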

Additional observations from a re-analysis of the deposited data

Results flagged for a closer look

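The sex difference changed between E12.5 and E15.5 by 1.82 for Msx1as, -3.46 for Msx2 and -1.05 for Gata2 on the log2 scale. Each was called by a test of the change itself (limma), in which 49.9% of all genes were called. The reporter also differed between these stages. The Gata2 call was lost under most alternatives. The Msx1as call was lost with a pseudocount of 4 RPM (0.65) and without any 1 of 4 libraries. By the same kind of test, the Msx1as difference between RB and RA grew by 4.21 from day 5 to day 9, where 17.5% of all genes were called. That between knockout and wild type changed by -2.64 from day 3 to day 9, where 14.9% of all genes were called.

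In 2 groups of 4 knockout libraries, 1 library stood apart for Msx1 from others that were all at 0. It was 0.0798 RPM in an SK2 library of CT day 3, and 0.649 RPM, or 2 reads, in an SK1 library of RB day 9. Both are under 3 reads, and where the other 3 libraries are at 0 any value above 0 stands apart in this way.

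Libraries with no replicate were above their controls in several values, judged by the lower counting limit of the library and not by the counting error of the control. The 0R3B library of day 9 had 3.35 RPM of Msx1, 42.4 of Msx1as and 150 of Gata2, where the highest CT library of that day had 0.323, 3.23 and 130. The C57BL/6 library c7RB had 1.93 RPM of Msx1as (8 reads) and 124 of Gata2, against 0.620 (2 reads, under the floor of 3) and 67.0 in c7CT. Msx2 was lower in both, at 26.3 RPM in 0R3B against 32.4 in the highest CT library, and 9.17 in c7RB against 21.1 in c7CT.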

How the results depend on the processing

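Of 1147 alternative values for 93 results on the 3 tested genes, 1067 stayed on their side of the threshold, 74 lost a call, 6 gained one and 0 called values changed sign. Among uncalled values 40 changed sign, the largest at 0.445. The cause of these changes was not tested, except that a fit on only the groups compared has fewer samples.

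With only the groups compared, calls were lost for the sex difference at E12.5 (Msx1as 2.30, Msx2 3.09, Gata2 3.90) and its change to E15.5 (Gata2 -1.05), for E10.5 minus E9.5 (Msx1as -1.63), female E12.5 minus E11.5 (Msx1as 2.93, Gata2 2.73), male E12.5 minus E11.5 (Msx2 -2.54, Gata2 -1.16), female E13.5 minus E12.5 (Msx1as 1.52) and female E15.5 minus E14.5 (Msx1as -1.84, Msx2 -1.38, Gata2 -1.25). They were also lost for day 3 minus day 0 (Msx2 -1.07), CT day 9 minus day 3 (Msx1as 1.53, Gata2 1.05) and RB minus CT at day 5 (Msx2 1.02). With no filter, the adjusted p passed 0.05 for Gata2 in male E12.5 minus E11.5 (-1.16) and the changed sex difference (-1.05), Msx1as in female E13.5 minus E12.5 (1.52) and CT day 9 minus day 3 (1.53), and Msx2 in female E15.5 minus E14.5 (-1.38) and RB minus CT at day 5 (1.02). A pseudocount of 4 RPM gave -0.97 for Gata2 in male E12.5 minus E11.5, 0.65 for Msx1as in the changed sex difference, 0.58 for Msx1as in CT day 9 minus day 3, and for Msx2 -0.99 in day 3 minus day 0, 0.94 in RB minus CT at day 5 and -0.93 in knockout minus wild type at day 7. A pseudocount of 0.5 RPM gave 1.54 for Msx1as in female E13.5 minus E12.5 and -0.97 for Gata2 in the changed sex difference. Median centring gave -0.98 for the latter and 0.92 for Gata2 in wild-type RB day 9 minus day 5. Quantile normalization ended calls for Msx2 in female E15.5 minus E14.5 (-1.25) and RB minus CT at day 5 (1.00), Gata2 in the changed sex difference (-0.45) and Msx1as in CT day 9 minus day 3 (1.399). It made calls for RA minus CT at day 9 (Msx1as -1.40, Msx2 -1.04) and RB minus RA at day 7 (Gata2 1.02).

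Leaving out 1 library changed calls within these ranges. They were -2.37 to -0.90 for Msx1as in E10.5 minus E9.5, -1.55 to -0.78 for Gata2 in male E12.5 minus E11.5, and 1.31 to 1.73 for Msx1as in female E13.5 minus E12.5. In female E15.5 minus E14.5 they were -2.31 to -1.37 for Msx1as, -1.63 to -1.13 for Msx2 and -1.43 to -1.06 for Gata2. The changed sex difference ran from 1.35 to 2.29 for Msx1as and -1.71 to -0.39 for Gata2, lowest in size without the second E15.5 male library. Day 3 minus day 0 ran from -1.33 to -0.80 for Msx2, and CT day 9 minus day 3 from 0.97 to 2.08 for Msx1as and 1.02 to 1.08 for Gata2. RB minus CT at day 5 ran from 0.77 to 1.27 for Msx2. RB minus RA ran from 0.91 to 1.06 for Gata2 at day 7, and at day 9 from 0.66 to 1.22 for Msx2 and 0.89 to 1.34 for Gata2. Knockout minus wild type at day 7 ran from -1.47 to -0.88 for Msx2.

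The replicate block changed no call of the 3 genes, with 810 genes called between the sexes at E12.5 in place of 820. The numbers were not taken to pair the libraries, since not every group pair deviated together: 0 of 55 group pairs had a correlation over 0.1 in the embryo, 11 of 55 in the 129S1:C57BL/6 line and 8 of 28 in the Stra8 experiment. Counts of called genes moved by over 1.5 times in 37 cases other than leaving out a library, and in 42 that did. A pseudocount of 4 RPM gave 466 genes in place of 820 between the sexes at E12.5, 1313 in place of 2101 at E13.5, 476 in place of 847 for E10.5 minus E9.5, 553 in place of 1066 for female and 470 in place of 871 for male E12.5 minus E11.5, 358 in place of 737 for female E13.5 and 286 in place of 617 for female E15.5. In culture it gave 425 in place of 649 for day 3 minus day 0, 392 in place of 619 and 1269 in place of 1934 for RA minus CT at days 7 and 9, 1502 in place of 2292 for RB minus CT at day 7, and 587 in place of 1066 for the knockout at day 7. With no filter the counts were 159 in place of 267 for CT day 9, 19 in place of 29, 37 in place of 80 and 2 in place of 5 for RA minus CT, RB minus CT and RB minus RA at day 5, and 6 in place of 2 for the knockout at day 5. With only the groups compared, the count was 0 for the sexes at E12.5, female E13.5, female E15.5, CT day 9, RA minus CT and RB minus RA at day 5 and the knockout at days 3 and 5, and 1 for E11.5 (142 before), female E12.5 and RB minus CT at day 5. It was 520 for E10.5, 18 for male E12.5, 14 for day 3, 147 for RA minus CT at day 7 and 2 in place of 275 for wild-type RB day 5 minus CT day 3. The 1 gene of the knockout at day 3 was lost with a pseudocount of 4 RPM, quantile normalization and averaged SK1 libraries, which gave 6 genes at day 5. Averaging the SK1 libraries or adding Msx1 to Msx1as, both chosen after seeing the data, changed no call of these genes. Msx1 had 189 reads in all 75 libraries together, against 2741 for Msx1as, and the cause of this was not tested.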
